A study of Mus musculus with 6 samples.

Results

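The cyclins and the cyclin-dependent kinases that drive the cell cycle were followed through cardiac induction of immortalized mouse cardiosphere-derived cells (iCDCs). The members were the 7 cyclin genes Ccnd1, Ccnd2, Ccnd3, Ccne1, Ccne2, Ccna2 and Ccnb1 and the 3 kinase genes Cdk4, Cdk2 and Cdk1. They were taken by gene name from the 54532 genes of the count table, and all 10 had 1 row each. RNA sequencing covered 3 control and 3 induced libraries. Both groups came from C57BL/6 heart ventricle cells at passage 30, which were grown out of adult epicardium, carried a human telomerase transgene introduced by lentivirus and had been selected with puromycin. Induced cells had received 10 µM 5-azacytidine, an inhibitor of DNA methylation, for 3 days. By the labels they had then been kept for 4 weeks in medium with 2% serum, for which the study's methods give a shorter time. Control cells carried no induction label. The study's methods grow these cells in an explant medium much richer in serum, without saying that the sequenced control cells were in it or for how long, so the effects of drug, serum and culture time cannot be told apart.

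Cyclins are regulatory subunits that rise and fall through the cell cycle and switch on their kinase partners. D-type cyclins with Cdk4 or its close relative Cdk6 act in G1 phase, where growth factors and serum set their amount, and they start the phosphorylation of the retinoblastoma protein. E-type cyclins with Cdk2 then drive entry into S phase, cyclin A2 acts with Cdk2 and Cdk1 through S and G2 phase, and cyclin B1 with Cdk1 starts mitosis. Transcripts of cyclin A2, cyclin B1 and Cdk1 are made mainly from S phase onwards and are scarce in resting cells, whereas Cdk4 and Cdk2 transcripts vary less over the cycle. Cardiac muscle cells leave the cell cycle as they mature.

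In induced cells, 8 of the 10 genes were lower and 1, Ccnd2, was higher by edgeR's quasi-likelihood test at an adjusted p of 0.05, and Ccnd3 did not pass. The genes of S phase and mitosis had the lowest values. Ccnb1, Ccna2 and Cdk1 stood at 24.3%, 26.1% and 36.3% of their control level. The E-type cyclins Ccne1 and Ccne2 stood at 43.5% and 50.1%, and Cdk2 at 74.6%. In the G1 group, Ccnd1 and Cdk4 stood at 66.8% and 64.3% of control, Ccnd2 at 117% and Ccnd3 at 102%.

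These counts stand beside a wide background. Of 14246 genes tested, 64.8% were past the same threshold, 32.2% as lower and 32.6% as higher, and the median log2 fold change of all genes was -0.01. Being called was therefore common, and the size of the change separates the members more than the call does. A call as at least 2-fold lower was made for 4 of the 10 (Ccne1, Ccna2, Ccnb1 and Cdk1) and for 7.83% of all genes tested. The 10 members had a median log2 fold change of -0.82. The libraries of the groups did not overlap for 9 of the 10, 8 of them as lower, against 68.6% of all genes tested, 34.5% as lower. All 10 passed the filter on low counts. Levels are TMM-scaled CPM, that is, counts relative to library size, errors are SDs over 3 libraries, and library totals ran from 19041133 to 19823369 counts. Induced replicate 2 stood further from the other induced libraries (chi-square per degree of freedom 8.91 and 8.04) than those did from each other (4.68). Without it the same number of members, 9, was called.

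**Figure D1:**
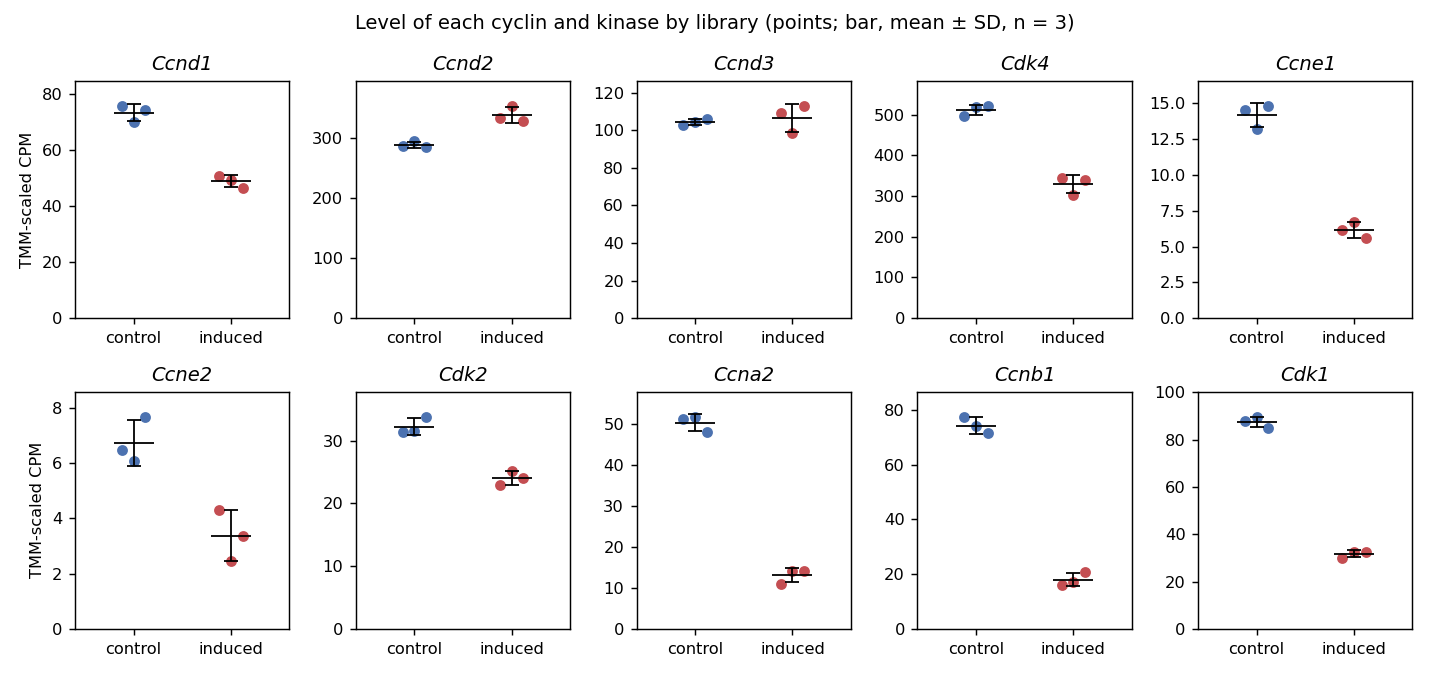
TMM-scaled CPM (vertical axis, from 0, a scale of its own per gene) of each cyclin and kinase in the 3 control (blue) and 3 induced (red) libraries; points are libraries, the long bar is the mean and the short bars mark 1 SD on either side. The groups are apart for 9 genes and overlap for Ccnd3, where the induced libraries run from 98.5 to 113 CPM around control values of 103 to 106 CPM.

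Ccnb1 encodes cyclin B1, the partner of Cdk1 at entry into mitosis. The gene (ENSMUSG00000041431) lies at chr13:100778650-100786570 on the minus strand of GRCm38. It had 77.4, 74.1 and 71.5 CPM in control replicates 1, 2 and 3, and 16.1, 17.1 and 20.8 CPM in induced replicates 1, 2 and 3. Every induced library lay far below every control library, with no overlap. The mean went from 74.3 ± 2.95 to 18.0 ± 2.47 CPM (SD, n = 3), a log2 fold change of -2.04 (SE 0.08, 95% interval -2.20 to -1.88, edgeR adjusted p 5.39e-14). It was the lowest of the 10, and 1.84% of all genes tested had a lower log2 fold change.

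Ccna2, which encodes the cyclin of S and G2 phase, lies at chr3:36564865-36572150 on the minus strand (ENSMUSG00000027715). Its control libraries held 51.3, 51.6 and 48.0 CPM and its induced libraries 11.1, 14.0 and 14.2 CPM. The groups did not overlap. Its log2 fold change was -1.94 (SE 0.08, 95% interval -2.12 to -1.76, edgeR adjusted p 5.19e-13), from a mean of 50.3 ± 2.01 to 13.1 ± 1.77 CPM (SD, n = 3).

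Cdk1 encodes the mitotic kinase that both of these cyclins bind, and lies at chr10:69335146-69352938 on the minus strand (ENSMUSG00000019942). It had 87.8, 89.5 and 85.1 CPM in control libraries and 30.1, 32.5 and 32.7 CPM in induced libraries. The groups were apart, and the spread within each was small beside the gap. The log2 fold change was -1.46 (SE 0.06, 95% interval -1.58 to -1.34, edgeR adjusted p 8.59e-14), from 87.5 ± 2.23 to 31.7 ± 1.44 CPM (SD, n = 3).

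Both cyclins were low also relative to the kinase they share, when their levels per kilobase were divided within a library. Ccnb1 per Cdk1 was 0.968 to 1.03 in control cells and 0.617 to 0.746 in induced cells. Ccna2 per Cdk1 was 0.681 to 0.706 and then 0.444 to 0.526. Neither ratio overlapped between groups. Since RNA came from bulk cultures, fewer cycling cells and less RNA of these genes per cycling cell cannot be told apart.

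At the passage from G1 into S phase, both E-type cyclins and their kinase were lower in induced cells. Ccne1 (ENSMUSG00000002068, chr7:38097984-38107534, minus strand) had 14.5, 13.2 and 14.8 CPM in control libraries and 6.16, 6.73 and 5.61 CPM in induced libraries. The gap between the groups was wider than either group's range. This was a log2 fold change of -1.20 (SE 0.11, 95% interval -1.44 to -0.96, edgeR adjusted p 3.34e-08).

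Ccne2 (ENSMUSG00000028212, chr4:11191351-11204779, plus strand), whose product also activates Cdk2, had 6.49, 6.06 and 7.66 CPM in control libraries and 4.30, 2.47 and 3.35 CPM in induced libraries. The groups did not overlap, though the induced libraries were spread widely. With 400 reads over the control and 192 over the induced libraries it had the fewest reads of the 10 and the widest interval. It fell by 0.997 on the log2 scale (SE 0.18, 95% interval -1.38 to -0.61, edgeR adjusted p 0.000117).

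Cdk2 (ENSMUSG00000025358, chr10:128697939-128705031, minus strand), the kinase of cyclins E and A, had 31.4, 31.6 and 33.8 CPM in control libraries and 22.9, 25.2 and 24.1 CPM in induced libraries. The groups were apart, by a smaller step than for the cyclins it binds. The log2 fold change was -0.42 (SE 0.07, 95% interval -0.57 to -0.27, edgeR adjusted p 3.97e-05). Per kilobase, Ccne1 per Cdk2 was 0.976 to 1.08 in control and 0.543 to 0.629 in induced libraries. Ccna2 per Cdk2 was 2.16 to 2.49 and then 0.735 to 0.897. Cyclin A2 transcripts thus exceeded those of Cdk2 in every control library and were below them in every induced library. These ratios rest on the deposited gene lengths. That of Cdk2 is 6219 bases, against 2406 for its longest coding transcript.

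The D-type cyclins, which link growth signals to the cycle, did not move together. Ccnd1 (ENSMUSG00000070348, chr7:144929931-144939925, minus strand) had 75.7, 70.0 and 74.5 CPM in control libraries and 51.0, 49.5 and 46.6 CPM in induced libraries, and the groups did not overlap. The mean went from 73.4 ± 3.03 to 49.0 ± 2.20 CPM (SD, n = 3), a log2 fold change of -0.58 (SE 0.06, 95% interval -0.70 to -0.46, edgeR adjusted p 4.25e-08).

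Ccnd2 (ENSMUSG00000000184, chr6:127125162-127152193, minus strand) was the one member that rose. It had 287, 295 and 286 CPM in control libraries and 335, 353 and 329 CPM in induced libraries. All induced values lay above all control values, by a small margin. It rose by 0.23 on the log2 scale (SE 0.05, 95% interval 0.13 to 0.32, edgeR adjusted p 0.00026).

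Ccnd3 (ENSMUSG00000034165, chr17:47505051-47599691, plus strand) had 103, 104 and 106 CPM in control libraries and 109, 98.5 and 113 CPM in induced libraries. Induced replicate 2 lay below all control libraries and the other two lay above them, so the groups overlapped. The log2 fold change of 0.03 (SE 0.06, edgeR adjusted p 0.632) had a 95% interval of -0.09 to 0.15, and changes outside it were not seen. Its sign turned, at -0.01, when library totals alone were used for scaling, and the value was -0.00012 without induced replicate 3. Without induced replicate 2 it was 0.09 (edgeR adjusted p 0.0605).

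Cdk4 (ENSMUSG00000006728, chr10:127063534-127067920, plus strand), the kinase of the D-type cyclins, had 496, 518 and 519.8 CPM in control libraries and 343, 303 and 340.4 CPM in induced libraries. The groups were far apart. Cdk4 had a log2 fold change of -0.64 (SE 0.05, 95% interval -0.74 to -0.53, edgeR adjusted p 3.19e-09).

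**Figure D2:**
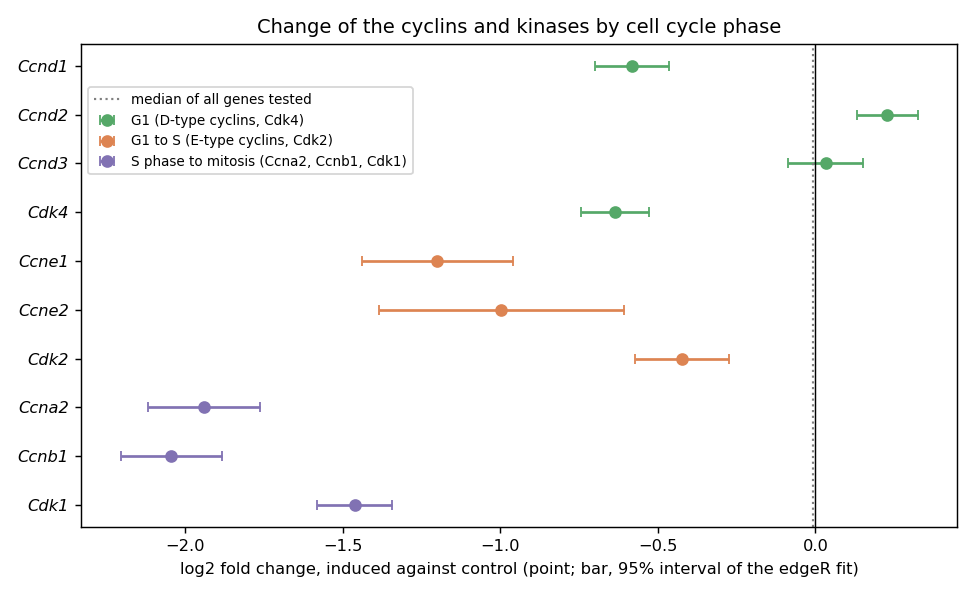
Log2 fold change of induced against control cells (horizontal axis) for the 10 genes, coloured by cell cycle phase; points are edgeR estimates, bars their 95% intervals, and the dotted line is the median of all genes tested, -0.01. The 3 genes of S phase to mitosis lie between -2.04 and -1.46, the 3 genes of G1 to S phase between -1.20 and -0.42, and the 4 genes of G1 phase between -0.64 and 0.23.

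By phase, the median log2 fold change was -0.27 for the 4 G1 genes, -0.997 for the 3 genes of G1 to S phase and -1.94 for the 3 genes of S phase to mitosis. The phases did not overlap between the first and the last group, while Cdk2, at -0.42, lay above Ccnd1 and Cdk4. These medians describe few genes each and were not tested against each other.

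Compared per kilobase of gene length, Cdk4 was the most abundant member in both groups, at 157 ± 4.09 CPM per kilobase in control and 101 ± 6.88 in induced cells (SD, n = 3). Ccnd2 came next, at 30.8 ± 0.549 and 36.0 ± 1.34. In control cells Cdk1 (17.7) and Ccnb1 (17.6) followed, with overlapping libraries, then Ccnd1 (15.6), then Ccna2 (12.3) and Ccnd3 (11.9), again overlapping. Ccne1 (5.32) and Cdk2 (5.19) overlapped, and Ccne2 (1.93) was lowest.

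In induced cells the order of levels per kilobase differed below the top pair. Ccnd3 (12.2 CPM per kilobase) and Ccnd1 (10.4) now stood above Cdk1 (6.43). Ccnb1 (4.27) and Cdk2 (3.87) followed with overlapping libraries, and Ccna2 (3.21), Ccne1 (2.32) and Ccne2 (0.966) came last, each apart from its neighbours. Both orders rest on the deposited gene lengths and are not kept with the longest coding transcript in their place. Ccnd3 then exceeded Ccnd2 in every control library, and Cdk2 exceeded Cdk1 in every induced library.

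**Figure D3:**
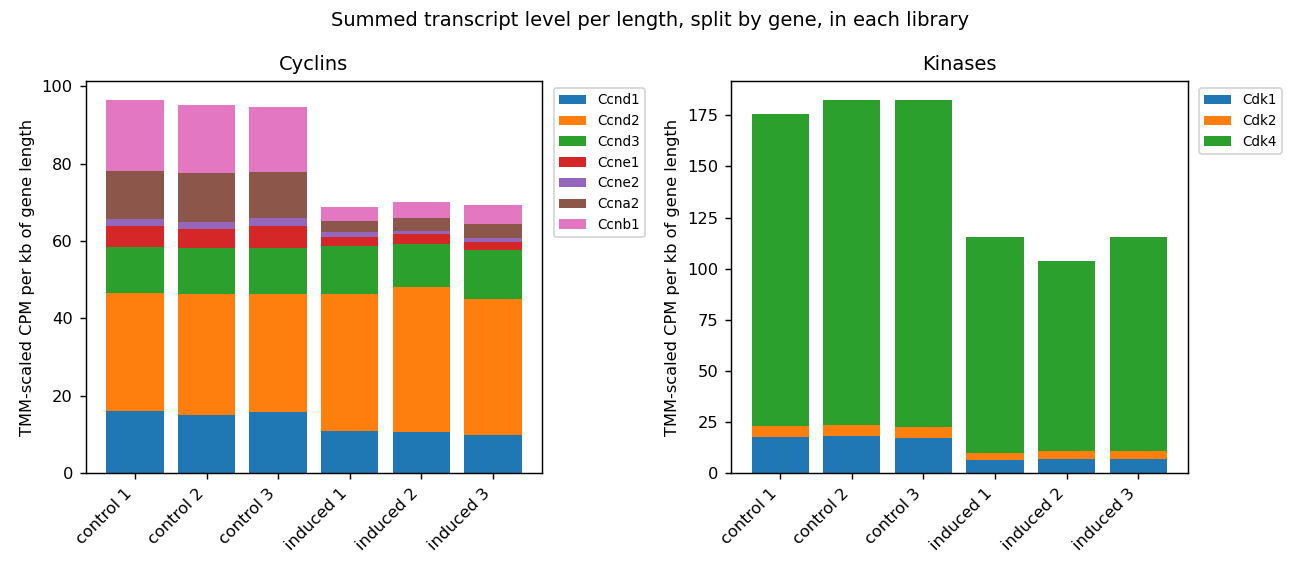
Summed TMM-scaled CPM per kilobase of gene length (vertical axis, from 0) of the 7 cyclins (left) and 3 kinases (right) in each library, each bar stacked by gene. The cyclin bars are shorter in the 3 induced libraries (mean 69.4 against 95.4) mainly in the segments of Ccna2 and Ccnb1, and the kinase bars (mean 112 against 180) mainly in that of Cdk4.

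The D-type cyclins summed to 58.2 ± 0.0828 CPM per kilobase in control and 58.6 ± 0.788 in induced cells (SD, n = 3), or 100.6% of control, with a different makeup. The share of Ccnd1 was 27.6%, 25.6% and 27.2% in control libraries and 18.4%, 17.7% and 17.2% in induced libraries, without overlap. The share of Ccnd2 went from 52.8% ± 1.02 to 61.5% ± 1.62, and that of Ccnd3 was 20.4% ± 0.347 and 20.8% ± 1.68 (SD, n = 3). Shares depend on the length assigned to a gene. With the longest coding transcript in place of the deposited length, Ccnd1 went from 17.1% to 11.2% of the pool, Ccnd2 from 39.8% to 45.7%, and Ccnd3 was the larger in control cells, at 43.0% there and 43.1% in induced cells.

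Within a library, Ccnd1 per Cdk4 overlapped between groups, at 0.0933 to 0.105 in control and 0.0945 to 0.113 in induced cells. Ccnd2 per Cdk4 did not overlap, rising from 0.190 to 0.200 in control to 0.334 to 0.402 in induced cells. Ccnd3 per Cdk4 was likewise higher, at 0.0747 to 0.0766 and then 0.118 to 0.123.

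The E-type pool went from 7.25 ± 0.529 to 3.28 ± 0.244 CPM per kilobase (SD, n = 3), or 45.3% of control. Ccne1 made up 73.5% ± 1.57 of it in control and 70.7% ± 6.66 in induced cells (SD, n = 3), and the libraries overlapped. Of the kinase pool, Cdk4 made up 87.3% in control and 90.7% in induced cells, and Cdk1 made up 9.84% and 5.79%. Cdk1 per Cdk2 was 3.18 to 3.57 in control and 1.63 to 1.71 in induced cells. With the longest coding transcript in place of the deposited length, Cdk1 made up 7.09% of that pool in control and 4.10% in induced cells. Cdk2 then made up 4.75% and 5.66%, so Cdk1 lay below Cdk2 in induced cells.

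The windows around the start sites of 3 members are printed. Cdk1 and Ccnb1 were chosen as mitotic partners among the 3 members with the largest falls, and Cdk4 as the most abundant member and the kinase of G1 phase, with a smaller fall. Sequences were available for 6 of the 10 members, in 7 windows of RefSeq (GRCm38.p6) from 250 bases before to 50 bases after the start. They are given 5′ to 3′ on the strand of the gene, with motif matches in capitals. Both strands were searched for the CHR element (TTTGAA or TTCGAA), bound by the MuvB complex that represses and activates genes of late cell cycle phases, and for the CCAAT box, bound by NF-Y. The E2F site (TTTCCCGC, TTTGGCGC, TTTCGCGC or TTTGCCGC) and the E-box CACGTG, bound by Myc with Max, were searched as well. The E-box was added after the Cdk4 sequence had been read. No matches overlapped.
Cdk1 at chr10:69352863-69353162, minus strand: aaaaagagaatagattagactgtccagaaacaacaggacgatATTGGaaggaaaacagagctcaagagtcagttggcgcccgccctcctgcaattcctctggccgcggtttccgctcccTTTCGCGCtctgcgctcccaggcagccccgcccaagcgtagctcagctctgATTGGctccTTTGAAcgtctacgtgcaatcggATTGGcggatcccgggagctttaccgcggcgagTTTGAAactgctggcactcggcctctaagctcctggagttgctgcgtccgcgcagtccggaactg
Ccnb1 at chr13:100786437-100786736, minus strand: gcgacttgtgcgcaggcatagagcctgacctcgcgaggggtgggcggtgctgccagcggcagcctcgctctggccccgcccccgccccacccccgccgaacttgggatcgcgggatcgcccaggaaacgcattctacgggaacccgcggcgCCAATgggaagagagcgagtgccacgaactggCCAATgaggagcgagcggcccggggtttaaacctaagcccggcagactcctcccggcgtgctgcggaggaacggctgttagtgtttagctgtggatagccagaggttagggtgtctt
Cdk4 at chr10:127063285-127063584, plus strand: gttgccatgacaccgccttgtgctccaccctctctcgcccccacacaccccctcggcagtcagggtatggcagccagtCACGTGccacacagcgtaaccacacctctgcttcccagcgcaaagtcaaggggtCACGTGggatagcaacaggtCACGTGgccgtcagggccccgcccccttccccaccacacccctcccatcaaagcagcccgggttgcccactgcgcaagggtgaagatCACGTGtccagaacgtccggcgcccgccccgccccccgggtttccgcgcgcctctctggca

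The Cdk1 window held 2 CHR elements, 3 CCAAT boxes read as ATTGG and 1 E2F site. Ccnb1 held 2 CCAAT boxes and no match to the letters listed for the other motifs. Cdk4 held 4 E-boxes and none of the others. Over 32851 windows of the same length, a CHR element was present in 19.2% and at least 2 in 2.54%, and a CCAAT box was present in 37.4% and at least 2 in 11.7%. An E2F site was present in 2.26%, an E-box in 7.15% and at least 2 E-boxes in 0.594%. Of the members not printed, Cdk2 held 1 CCAAT box and 1 E2F site, Ccne1 held no match, and Ccnd3 held 1 CCAAT box in 1 of its 2 windows. These matches are to the listed letters in a window, and other spellings of the motifs were not searched. They say nothing of binding in these cells.

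Ccnb2, the second B-type cyclin, had 54.0, 61.5 and 50.3 CPM in control libraries and 13.3, 11.9 and 11.8 CPM in induced libraries, with no overlap (log2 fold change -2.17, SE 0.08, edgeR adjusted p 1.12e-13). Ccnf, a cyclin that serves as part of a ubiquitin ligase, fell by 1.84 on the log2 scale. Cdk6, which shares the D-type cyclins with Cdk4, was opposite in direction to Cdk4. It had 43.1, 42.7 and 40.8 CPM in control and 52.8, 59.7 and 58.9 CPM in induced libraries, without overlap, a log2 fold change of 0.44 (SE 0.06, edgeR adjusted p 3.81e-06). Of the remaining 2 genes of that list, the germ line cyclin Ccna1 had 2 reads in control and 1 in induced libraries, and Ccnb3 had none.

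Activators of the kinases were lower for 5 of 8 genes and higher for none, beside 32.2% lower and 32.6% higher among all genes tested, with a median log2 fold change of -0.81. The phosphatases Cdc25c and Cdc25b, which remove inhibitory phosphates from the kinases, were lower, with log2 fold changes of -1.83 and -1.56. Cks2, a small kinase-binding subunit, was lower at -1.42. The 3 genes of the kinase-activating complex, Cdk7, Ccnh and Mnat1, did not pass, with log2 fold changes of -0.11, 0.15 and 0.13. These non-calls held under the alternative settings, except in 3 cases. Without induced replicate 2, Ccnh (0.18, edgeR adjusted p 0.0335) and Mnat1 (0.19, edgeR adjusted p 0.0132) passed as higher, and with library totals alone Cdk7 passed as lower (-0.14, edgeR adjusted p 0.0465).

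Inhibitors were mostly lower as well, counted by gene. Of 9 listed genes 7 were tested, 5 were lower, 1 was higher and 1 did not pass. Among all genes tested, 32.2% were lower and 32.6% higher. The median log2 fold change of the inhibitors was -0.43. The exception was Cdkn1a, which encodes p21, an inhibitor of cyclin and Cdk2 complexes. It had 138, 145 and 135 CPM in control libraries and 267, 242 and 259 CPM in induced libraries, with no overlap (log2 fold change 0.88, SE 0.05, edgeR adjusted p 4.05e-11). Summed over the 9 listed genes, the level was 398 to 412 CPM in control and 445 to 461 CPM in induced libraries. The inhibitory kinases Pkmyt1 and Wee1 were lower, with log2 fold changes of -0.68 and -0.43. Cdkn2a and Cdkn2b, genes of Cdk4 inhibitors, had 0 reads in all 6 libraries, which allows up to 0.150 to 0.159 CPM per library. Cdkn2c and Cdkn2d, of the same inhibitor family, had 66.9 and 31.0 CPM in control and 49.8 and 25.8 CPM in induced cells. Both were among the 5 lower genes.

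Cyclin degradation genes were lower for 6 of 9, higher for 1 and not called for 2, against the same shares over all genes, with a median log2 fold change of -0.73. The higher gene was Fbxw7, a substrate receptor for cyclin E (0.29 on the log2 scale, SE 0.11, edgeR adjusted p 0.0252). That call was lost with library totals alone, with limma on log2(FPKM + 0.1), at an adjusted p of 0.01, and when control replicate 2, control replicate 3, induced replicate 1 or induced replicate 2 was left out (edgeR adjusted p 0.0557 to 0.0933 without 1 of these libraries). Cdc20, which directs cyclin B1 to the anaphase-promoting complex, had the largest fall at -2.39 on the log2 scale (SE 0.07, edgeR adjusted p 1.62e-15). Ube2c, its ubiquitin-conjugating enzyme, was at -1.99, and Skp2, a subunit of the ligase for p27 and cyclin E, at -1.56.

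The lists of transcriptional and of further cyclins and kinases had medians near that of all genes. Of 12 genes of the transcriptional cyclins and kinases, 3 were higher, 2 lower and 7 not called, with a median of 0.00, where 64.8% of all genes tested were called. The largest changes of these were Cdk19 at 0.40, Ccnk at -0.34 and Ccnt2 at 0.30 on the log2 scale. Of 13 further cyclins and kinases, 6 were higher, 3 lower and 4 not called, a number called that is near the share over all genes, with a median of 0.04. It was led by Ccnyl1 at -0.81, Ccng1, a p53 target, at 0.79, and Cdk17 at -0.68. The number called among the transcriptional genes fell from 5 to 3 with DESeq2, at an adjusted p of 0.01 and without control replicate 1.

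**Figure D4:**
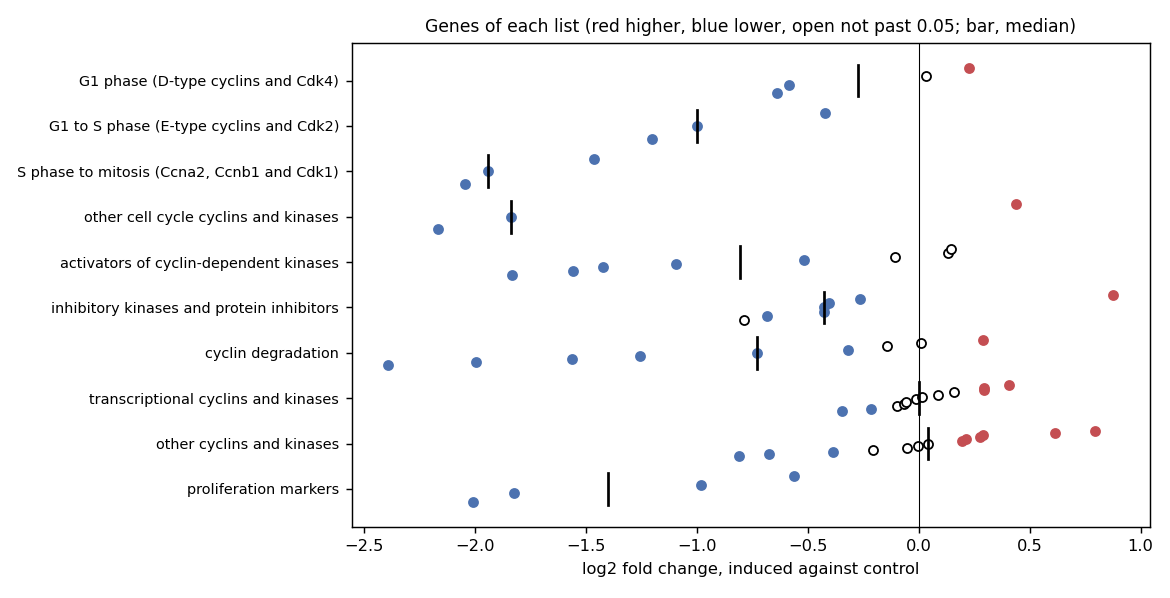
Log2 fold change of induced against control cells (horizontal axis) of each tested gene, by list; points are genes, red where higher, blue where lower and open where not past an adjusted p of 0.05, and bars are list medians. The cyclin degradation list reaches lowest, to -2.39. The transcriptional cyclins and kinases stay between -0.34 and 0.40. The other cyclins and kinases lie between -0.81 and 0.79, and the inhibitors between -0.78 and 0.88.

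Proliferation markers were lower in induced cells. Mki67 went from 135 ± 2.40 to 33.7 ± 2.49 CPM (SD, n = 3), a log2 fold change of -2.01, and Top2a, Mcm2 and Pcna were at -1.82, -0.98 and -0.56 on the log2 scale. The part that the share of dividing cells plays in the members' values was not tested.

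Genes whose levels ran most like a member over the 6 libraries were sought by the root mean square distance of centred log2 CPM. Nearest to Ccnd1 were Nup188 (0.0209), Hnrnpa0 (0.0266) and Cd9 (0.0268). Nearest to Ccnb1 were Glipr2 (0.0632), Pimreg (0.0652) and Hmgb2 (0.0655). The 6 points share libraries and fall into 2 groups, so genes with a fold change of like size lie close by construction.

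Marker genes were set beside the label of the cells, with no other cell type among the libraries for comparison. Eng, Thy1 and Ly6a, markers of cardiosphere-derived cells, summed to 503 to 508 CPM in control and 563 to 595 CPM in induced libraries. Thy1 was higher and Ly6a lower in induced cells (0.54 and -0.57 on the log2 scale). Eng was at 0.12 (edgeR adjusted p 0.019), a call lost with library totals alone, at an adjusted p of 0.01 and without any 1 control library or induced replicate 1 (edgeR adjusted p up to 0.0846). Endothelial markers (Pecam1, Kdr, Cdh5) summed to at most 0.355 CPM, and the leukocyte markers Ptprc, Itgam and Tyrobp had 0 reads. Of the cardiac muscle markers, Tnnt2 went from 13.1 ± 1.62 to 58.2 ± 1.92 CPM (SD, n = 3), but Myh6 had 0 and 1 reads and Actn2 0 and 8 reads over control and induced libraries.

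Reads from overlapping genes could bear on some members, because the strand setting of the counting is not given in the sources used here. Any such effect was not tested. Of the exon bases, 23.4% of Ccnd1 are shared with Oraov1 on the opposite strand, 19.7% of Cdk4 with Tspan31, 17.4% of Ccne2 with Ints8, 12.5% of Ccna2 with Exosc9, 7.87% of Ccnd2 with 9330179D12Rik and Gm43126, 4.11% of Ccnd3 with Bysl and 0.547% of Cdk2 with Pmel. Ccne1, Ccnb1 and Cdk1 share none. Oraov1 was higher in induced cells (20.1 to 27.0 CPM), opposite in direction to Ccnd1. Tspan31 had 112 and 125 CPM (edgeR adjusted p 0.022), a call lost with library totals alone, at an adjusted p of 0.01, and when control replicate 2, control replicate 3 or induced replicate 1 was left out. Ints8 was lower (28.4 to 22.2 CPM), in the direction of Ccne2. A pseudogene named Ccnb1-ps had 17, 18 and 38 reads in control and 16, 8 and 3 in induced libraries, against 4408 and 1026 summed reads of Ccnb1.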

How the data were processed

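RNA was sequenced from 3 control and 3 induced samples of iCDCs, and groups were taken from the sample labels. The authors deposited raw counts and FPKM per gene in 1 table; the submitters' processing notes name HISAT2 2.0.5, featureCounts 1.5.0-p3, DESeq2 1.16.1 and mm10, without roles. Annotation and strand setting are not given in the sources used here. All 10 members have GENCODE M21 coordinates in the deposited table. The authors' fold changes, p-values and Gene Ontology tables were not used, since they hold the authors' own comparisons. Deposited FPKM served only as an alternative scale.

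The filterByExpr function, with a minimum count of 10 and a minimum total of 15, retained 14246 genes. Counts were scaled by TMM and tested with edgeR 4.0.16 (R 4.3.3) by the two-sided quasi-likelihood test, prior count 0.125, with Benjamini-Hochberg adjustment over all genes tested and a threshold of 0.05. The script was tested on simulated data. DESeq2 1.42.0 and limma 3.58.1, the latter on log2(FPKM + 1) and log2(FPKM + 0.1), were alternatives. Levels between genes were compared per kilobase of the deposited gene length, which equals the union of exons. Depth was 19041133 to 19823369 counts per library, and limits for 0 reads take 3 counts and cover counting error only. Library pairs within a group differed by more than sampling noise (chi-square per degree of freedom 2.56 to 8.91 over genes with at least 20 summed counts). The labels name separate samples but not separate cultures, so p-values measure the spread between these samples, which may be technical.

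The text names all 10 members, the 3 most changed called genes of each pathway list, Cdk6, Ccnb2 and Ccnf, the proliferation markers, and the 3 genes nearest to Ccnd1 and to Ccnb1. Genes given beyond that rule were chosen after their values were seen. The members and lists were chosen with earlier results of these data known. The labels and the study's methods differ in the medium and duration of the culture after the drug, and the methods state fewer replicates than the table holds.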

Additional observations from a re-analysis of the deposited data

How the results depend on the processing

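Of the 10 members, 9 were called under each of the 15 alternatives (1 higher, 8 lower), and 148 of their 150 values kept direction and side of the threshold. The other 2 were both of Ccnd3, whose log2 fold change was -0.0053 (edgeR adjusted p 0.94) with library totals alone and -0.00012 (edgeR adjusted p 0.999) without induced replicate 3, and ran from -0.00012 to 0.093 leaving out 1 library. Of 599 values of 40 other named genes, 578 kept direction and call, 18 lost it (Fbxw7, Eng, Tspan31), 3 gained one (Cdk7, Ccnh, Mnat1) and 0 changed direction. Cdkn2c and Cdkn2d were not among these 40. The number of transcriptional cyclins and kinases called was 5, and 3 with DESeq2 and at an adjusted p of 0.01; leaving out 1 library gave 3 to 6, the 3 without control replicate 1. The share of Ccnd1 in the D-type pool differed by -9.00 percentage points, by -5.92 with the longest coding transcript (chosen after seeing the data), and by -9.61 to -8.59 leaving out 1 library. Over all genes, 7783 to 9765 were called. Same-numbered libraries did not deviate together (correlations -0.047, -0.038 and 0.041), which cannot show whether the samples were handled in pairs. With replicate number as a block, 9063 genes and 9 members were called. Among the 10 members, Ccne2 had the fewest reads, and Cdkn2a and Cdkn2b could be detected only above the level that 0 reads allow.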
